A study of Mus musculus with 6 samples.

Results

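The genes described here were the abundant long non-coding RNAs (lncRNAs) of a mouse spermatogonial cell line, GC-1 spg. They are the 245 rows of the deposited gene table that are annotated as lncRNA and averaged at least 5 CPM over all 6 libraries, where CPM is the count per 1000000 counts of the library. They were taken from 11522 lncRNA rows, of which 4127 had at least 1 count, in a table of 57180 rows. Another 16 lncRNA rows reached that level and were left out because they are Gas5, Zfas1, Epb41l4aos or a gene named Snhg, or lie between 8200000 and 9200000 on chromosome 19, around Snhg1. That choice went by name and place, and the spans of 6 members still hold small nucleolar RNA rows, among them 2410006H16Rik, 1110038B12Rik and Dancr. The levels chose the members and are given as a description. The limit was set on the mean of all libraries, so a difference between groups could carry a row over it. Of the 245, 224 averaged at least 5 CPM in each group, 8 were under 5 CPM in Ov_SNHG1 libraries and 13 were under it in Vector libraries. Of the lncRNAs named below, Gm36995, Gm16973 and Gm26682 are among the 8, and 4833438C02Rik, Gm21982, Gm49544, Gm47428, C4a and Zfp862-ps among the 13. Just inside the limit were Gm26682, Zfp862-ps and Gm16973 at 5.01, 5.02 and 5.05 CPM, and just outside it were Gm10602, 4933421O10Rik and Gm14636 at 5.00, 4.93 and 4.91 CPM.

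Long non-coding RNAs are long transcripts that are not known to encode a protein. Some act where they are made, by silencing or activating the genes beside them, and others build nuclear bodies, bind RNA-binding proteins or carry microRNAs in their introns or exons. Many are antisense to a coding gene or share a promoter region with one, so their reads and their levels are hard to separate from those of that neighbour.

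The series compared cells labelled as SNHG1 overexpression (Ov_SNHG1, 3 libraries) with cells labelled as vector control (Vector, 3 libraries), all collected 24 h after transfection. SNHG1 is itself a lncRNA, the host of a group of small nucleolar RNAs. All 6 libraries come from the same line, and all carry the label Non-obstructive azoospermia as their treatment. The sources used here do not give the species or sequence of the SNHG1 construct, and the labels do not say that replicates were separate cultures, so p-values measure a spread between libraries that may be technical. Libraries were made from poly(A) RNA with a stranded kit, so lncRNAs without a poly(A) tail are measured poorly.

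Library totals ran from 15521900 to 21095427 counts. A gene at 0 may have had up to 3 counts (0.142 to 0.193 CPM), a limit that covers counting error only. The endogenous Snhg1 had 467, 555 and 487 counts in Ov_SNHG1 libraries, against 464, 402 and 385 in Vector libraries. In CPM, the groups overlapped, since Vector replicate 2 (25.9 CPM) was above 2 of the Ov_SNHG1 libraries. The log2 fold change of 0.14 ± 0.10 (SE) did not pass edgeR's quasi-likelihood test (adjusted p = 0.520), so the counts of Snhg1 do not separate the labels by the test. Ov_SNHG1 replicate 1 stood apart from the other replicates of its group, with chi-square values over degrees of freedom of 17.6 and 18.3 against them, where the other pairs within a group had 11.55 to 12.9. Of 17 germ line markers, 16 were under 1 CPM and 8 were at 0 in every library, among them Ddx4, Kit and Zbtb16. The summed level of 7 peritubular and fibroblast markers was 17916 to 18604 CPM in Ov_SNHG1 libraries, against 21057 to 22406 CPM in Vector libraries. Most of that sum was Col1a2 and Col1a1, and other markers did not go the same way (Pdgfra averaged 289 against 208 CPM and Pdgfrb 300.2 against 295.7 CPM). The 9 macrophage and blood markers summed to 44.1 to 49.7 CPM against 36.8 to 37.8 CPM, mostly through Cd14 (24.4 against 14.4 CPM), while Lyz2 averaged 15.3 CPM in both groups and Csf1r 1.04 against 1.43 CPM. Sertoli markers summed to 640 to 740 CPM against 620 to 648 CPM, most of it Rhox5, while Leydig and endothelial markers summed to under 4 CPM in every library. The part of any of these in the results below was not tested, and in such bulk libraries fewer cells of a kind and less RNA per cell cannot be told apart.

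Of the 245 lncRNAs, 4 passed edgeR's test at an adjusted p of 0.05 over all 14605 tested genes, 1 of them higher and 3 lower in Ov_SNHG1 cells. The 3 lower ones were Mir100hg, the host transcript of a microRNA cluster, Gm19656 and Gm11816, and the higher one was 4833438C02Rik, which overlaps the NF-kappaB gene Nfkb2. All 245 were tested, and 1.63% passed, against 2.4% of all tested genes and 2.95% of tested genes of at least 5 CPM. By direction, 1.54% of all tested genes passed as higher and 0.856% as lower, and 1.07% of those of at least 5 CPM passed as lower. The share of lncRNAs that passed was thus near that of other genes. Of the 224 that averaged at least 5 CPM in each group, the 3 lower ones passed and none passed as higher.

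Most of the lncRNAs lay close to no change. The log2 fold change of Ov_SNHG1 over Vector was within 0.5 of 0 for 231 of the 245, and its median SE was 0.13. At that SE, even changes of the size of those in the 3 lower lncRNAs that passed could be missed. Oip5os1, for example, had a log2 fold change of -0.45 ± 0.11 and did not pass. The median SE was 0.15 for the 124 lncRNAs at 5 to 10 CPM and 0.07 for the 9 at 100 CPM or more. The median log2 fold change was -0.06, with 145 lncRNAs (59.2%) below 0, against a median of 0.01 and 48.7% below 0 over all tested genes. At an unadjusted p under 0.05 there were 57 lncRNAs (23.3%), 18 higher and 39 lower, against 17% of all tested genes, 8.26% higher and 8.71% lower. The libraries of the groups did not overlap for 69 lncRNAs (28.2%), 22 higher and 47 lower in Ov_SNHG1 libraries, against 23.7% of all tested genes, 11.8% higher and 11.9% lower. All tested genes include many of low counts. Of 10095 tested protein-coding genes of at least 5 CPM, 19.8% had an unadjusted p under 0.05 (973 higher, 1026 lower). Among these coding genes, 26.8% did not overlap (1356 higher, 1347 lower) and 49.6% were below 0. Over the other settings and with any library left out, the share of lncRNAs below 0 stayed between 54.7% and 61.6%.

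**Figure D1:**
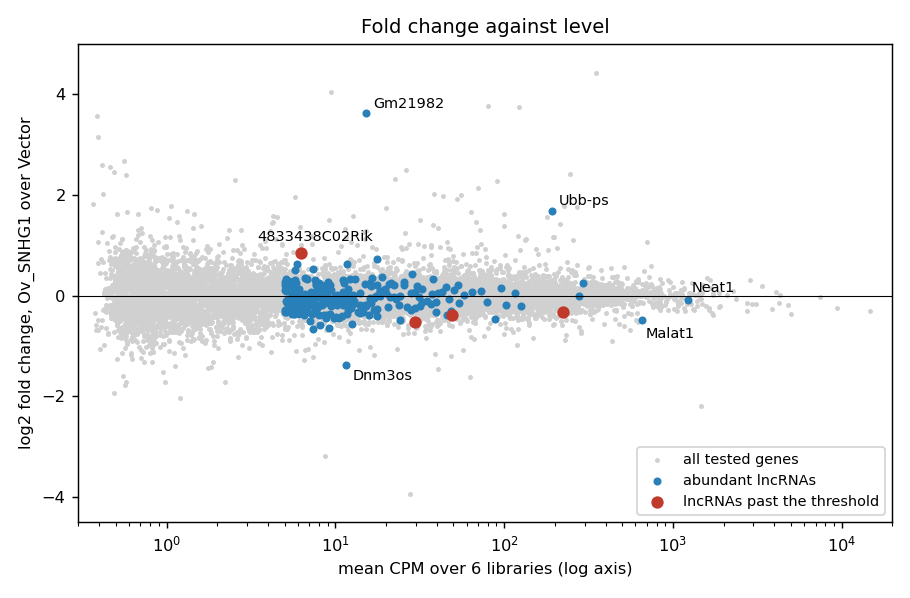
Log2 fold change of Ov_SNHG1 over Vector (y axis) against mean CPM over 6 libraries (x axis, log scale) for 14605 tested genes in grey, the abundant lncRNAs in blue and the 4 that passed in red. In all, 6 grey genes lie outside the axes. Most blue points lie within 0.5 of 0, and Gm21982 and Ubb-ps stand far above it without having passed.

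Mir100hg (ENSMUSG00000074415, chromosome 9, 41238373 to 41628290 in the deposited table) was the fifth most highly counted of the lncRNAs. It is the host of 3 microRNA genes that lie inside it in the same orientation, Mir100, Mirlet7a-2 and Mir125b-1. Mature microRNAs were not measured by these libraries, so the sequences (RefSeq, GRCm38.p6, + strand) are printed to show which seeds the host carries. The first of them, miR-100-5p, lies at chr9:41531437-41531458 and the last, miR-125b-5p, at chr9:41581940-41581961. Capitals mark the seed, bases 2 to 8.
mmu-miR-100-5p: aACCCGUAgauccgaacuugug
mmu-let-7a-2-3p: cUGUACAGccuccuagcuuuc
mmu-miR-125b-5p: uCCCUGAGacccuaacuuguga

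The 3 seeds differ from each other, and Mirlet7a-2 also gives let-7a-5p, which is printed with its second host below. Mir100hg had 192.9, 202.4 and 200.2 CPM in Ov_SNHG1 libraries, against 253.1, 253.5 and 241.8 CPM in Vector libraries. Every Ov_SNHG1 library was below every Vector library, with a gap several times wider than the spread inside either group. The means were 198.5 ± 4.97 CPM in Ov_SNHG1 cells and 249.5 ± 6.65 CPM in Vector cells (SD, n = 3 each). The level in Ov_SNHG1 cells was 0.793 of that in Vector cells, a log2 fold change of -0.33 ± 0.05 (SE; edgeR adjusted p = 0.0172). The call ended when any library other than Ov_SNHG1 replicate 1 was left out (adjusted p 0.0539 to 0.0847) and when trends with GC content and length were removed (log2 fold change -0.25, adjusted p = 0.0501). The FPKM column implies a length of 76750 bp for this row, against 4244 bp for its longest transcript in the GENCODE M21 annotation, so its per-length level of 2.92 FPKM cannot be set beside those of other genes.

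Gm11816 (ENSMUSG00000086233, chromosome 4, 9282706 to 9287391) is a 3-exon transcript that lies wholly inside Clvs1, on the opposite strand. It had 25.03, 25.4 and 22.4 CPM in Ov_SNHG1 libraries, against 34.7, 35.2 and 35.1 CPM in Vector libraries. The groups did not overlap, and the Vector libraries were nearly identical. The log2 fold change was -0.53 ± 0.08 (SE; edgeR adjusted p = 0.0128), so that the level fell to 0.691 of that in Vector cells. Clvs1, a gene mainly known from neurons, was at 0.393 CPM and was not tested. The call ended when any Vector library was left out (adjusted p 0.0526 to 0.0595), and held without any of the Ov_SNHG1 libraries.

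Gm19656 (ENSMUSG00000109149, chromosome 7, 98369264 to 98377967) is a transcript of 2 exons that lies 1995 bp from the coding gene Thap12, on the opposite strand. It had 43.4, 40.5 and 43.1 CPM in Ov_SNHG1 libraries, against 56.5, 54.95 and 54.2 CPM in Vector libraries. All Ov_SNHG1 libraries were lower, and the gap exceeded the spread inside the groups. The log2 fold change was -0.39 ± 0.06 (SE; edgeR adjusted p = 0.0181), and the level fell to 0.765 of that in Vector cells. Thap12 had a log2 fold change of -0.10 ± 0.06, which did not pass (adjusted p = 0.395). The call for Gm19656 ended without Ov_SNHG1 replicate 2 or 3 or any Vector library (adjusted p 0.0583 to 0.0921).

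4833438C02Rik (ENSMUSG00000118087, chromosome 19, 46292020 to 46294075) was the only one of the 245 lncRNAs that passed as higher. It averaged 8.04 CPM in Ov_SNHG1 libraries and 4.49 CPM in Vector libraries, so it reached the limit of 5 CPM only through the group where it was high. It had 8.51, 7.22 and 8.38 CPM in Ov_SNHG1 libraries, against 3.70, 4.57 and 5.20 CPM in Vector libraries. The lowest Ov_SNHG1 library was above the highest Vector library. The counts behind these levels were 166, 152 and 161 against 78, 71 and 96. The level was 1.79-fold higher, a log2 fold change of 0.84 ± 0.16 (SE; edgeR adjusted p = 0.0353), and the call ended when any 1 library was left out (adjusted p 0.0521 to 0.121).

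The row shares 1317 bp with Nfkb2, which lies on the opposite strand and encodes the p100 precursor of the NF-kappaB subunit p52. Nfkb2 had 205, 204 and 194 CPM in Ov_SNHG1 libraries, against 103, 104 and 111 CPM in Vector libraries. Its log2 fold change of 0.92 ± 0.06 was close to that of 4833438C02Rik and passed edgeR's test (adjusted p = 0.000153). The counts of 4833438C02Rik were 3.54 to 4.32% of those of Nfkb2 in Ov_SNHG1 libraries and 3.58 to 4.68% in Vector libraries. The sources used here do not give the strand setting of the counting, so reads of 4833438C02Rik and of Nfkb2 in the shared stretch cannot be told apart.

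The start of 4833438C02Rik lies among the starts of Nfkb2, and the sequences around them are shown because they hold the same candidate site. The windows run from 250 bases before to 50 bases after each gene start (RefSeq, GRCm38.p6, a build whose coordinates differ from those of the deposited table). Capitals mark a match to the kappaB consensus, a motif of 10 letters searched on both strands. The window of 4833438C02Rik is chr19:46305580-46305879 on the - strand and that of 1 of the 3 Nfkb2 starts is chr19:46305680-46305979 on the + strand.
4833438C02Rik: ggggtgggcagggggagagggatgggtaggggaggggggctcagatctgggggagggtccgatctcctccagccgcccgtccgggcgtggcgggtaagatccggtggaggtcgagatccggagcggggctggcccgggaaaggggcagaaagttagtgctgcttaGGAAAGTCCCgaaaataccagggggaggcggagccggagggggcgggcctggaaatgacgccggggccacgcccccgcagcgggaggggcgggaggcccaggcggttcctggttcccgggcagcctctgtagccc
Nfkb2: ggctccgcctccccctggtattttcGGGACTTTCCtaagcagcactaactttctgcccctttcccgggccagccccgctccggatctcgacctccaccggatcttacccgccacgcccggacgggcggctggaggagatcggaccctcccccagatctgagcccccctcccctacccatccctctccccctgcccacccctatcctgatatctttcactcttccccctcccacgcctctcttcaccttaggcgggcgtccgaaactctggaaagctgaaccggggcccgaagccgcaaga

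The 2 windows share 200 bases, and the capitals in them are the same 10 bases of the genome, chr19:46305705-46305714, read on opposite strands. The match lies 85 bases before the start of 4833438C02Rik and 225 bases before that start of Nfkb2. It is also in the window of another Nfkb2 start, chr19:46305445-46305744, which shares 165 bases with that of 4833438C02Rik. That Nfkb2 window holds a further match at chr19:46305459-46305468, outside the window of 4833438C02Rik. The remaining Nfkb2 window, chr19:46304487-46304786, shares 0 bases with that of 4833438C02Rik and holds 3 matches of its own, some overlapping. The shared match is thus not the only one near the starts of Nfkb2. A match was present in 4.51% of all 32851 promoter windows of this length, with no limit on chromosome. It was present in 5 of the 158 windows of the abundant lncRNAs outside chromosome 18 (3.16%), so the 2 sets are not chosen alike. With no such limit, 131 members have a window. One of those 5 is a window of Mir100hg, 1 of the 3 lncRNAs that were lower. A match is a description of letters and not a bound site.

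**Figure D2:**
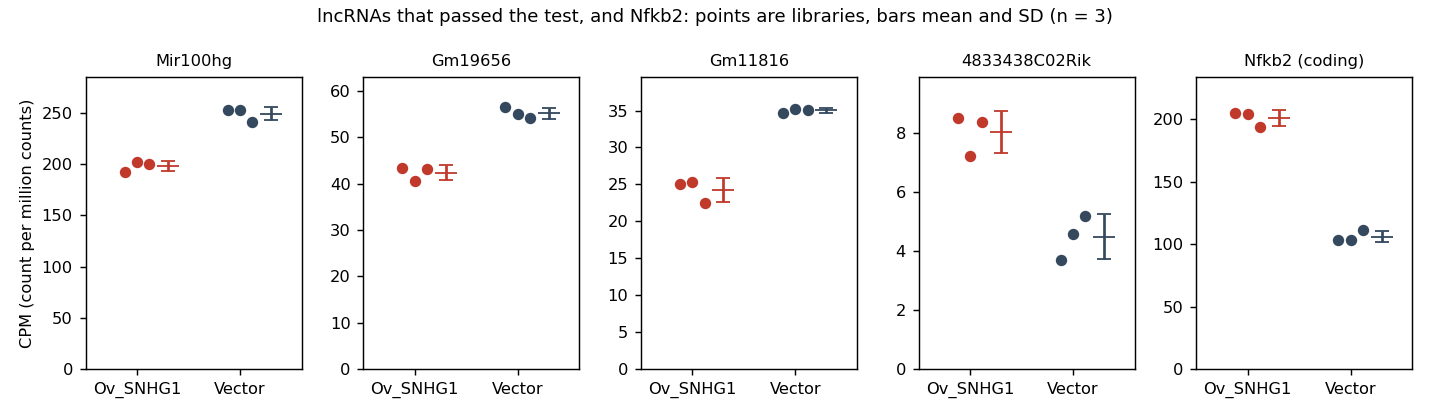
CPM in every library (y axes, from 0) of the 4 lncRNAs that passed and of the coding gene Nfkb2, with Ov_SNHG1 libraries in red and Vector libraries in blue; bars give mean and SD, n = 3. Mir100hg, Gm19656 and Gm11816 are lower in all Ov_SNHG1 libraries, and 4833438C02Rik and Nfkb2 are higher in all of them.

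Among the abundant lncRNAs that were searched for microRNA genes, which were not all of them, 8 contain such genes on their own strand. These are 15 microRNA genes in all, and Mir100hg was the only one of the 8 hosts that passed. The hosts fall into groups by the seeds they carry. 6720427I07Rik, which hosts let-7d, let-7f-1 and let-7a-1 on chromosome 13, carries the let-7 seed on each of its 3 microRNAs, and its let-7a-5p is the same molecule as that of Mirlet7a-2 in Mir100hg. Dleu2 carries 1 shared seed on miR-15a and miR-16. Mature sequences from RefSeq (GRCm38.p6), with the seed in capitals, are given for these and for the hosts with the highest and the most variable counts.
mmu-let-7a-5p: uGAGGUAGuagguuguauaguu
mmu-let-7d-5p: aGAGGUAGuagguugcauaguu
mmu-let-7f-5p: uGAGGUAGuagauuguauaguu
mmu-miR-15a-5p: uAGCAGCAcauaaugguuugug
mmu-miR-16-5p: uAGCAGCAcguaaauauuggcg
mmu-miR-31-5p: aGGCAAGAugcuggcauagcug
mmu-miR-22-3p: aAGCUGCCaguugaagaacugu
mmu-miR-199a-5p: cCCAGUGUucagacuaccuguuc
mmu-miR-214-3p: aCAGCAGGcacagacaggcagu

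6720427I07Rik had 6.05, 5.79 and 6.72 CPM in Ov_SNHG1 libraries, against 5.83, 7.99 and 5.04 CPM in Vector libraries. The groups overlapped, and the log2 fold change was -0.02 ± 0.18. The lower level of Mir100hg was thus not seen in the other let-7 host, whose 95% interval of -0.44 to 0.40 includes the value of Mir100hg. Gm49890, host of miR-31, had 44.9, 46.4 and 51.9 CPM against 34.4, 50.3 and 41.8 CPM, a log2 fold change of 0.18 ± 0.13. Mir22hg, host of miR-22, was among the steadiest, with 28.6, 27.8 and 28.7 CPM in Ov_SNHG1 libraries, against 27.3, 28.4 and 26.7 CPM in Vector libraries.

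Dnm3os, which hosts miR-199a-2 and miR-214 within the Dnm3 gene and is known from mesenchymal cells, had the lowest log2 fold change of the 245 lncRNAs, -1.37 ± 0.62. Its counts were 118, 260 and 18 in Ov_SNHG1 libraries, against 418, 206 and 313 in Vector libraries. In CPM, Ov_SNHG1 replicate 3 was at 0.937 CPM, far below the 6.05 and 12.4 CPM of the other Ov_SNHG1 libraries, and all 3 lay below the lowest Vector library at 13.3 CPM. The difference did not pass (edgeR adjusted p = 0.312), and without Ov_SNHG1 replicate 3 the log2 fold change was -0.86 (adjusted p = 0.301) and without Ov_SNHG1 replicate 2 it was -2.26 (adjusted p = 0.177). Dleu2 had 7.85, 6.98 and 3.28 CPM against 3.70, 11.02 and 5.15 CPM, so that both groups spanned more than a factor of 2 and overlapped. Ftx and 2900076A07Rik, the remaining hosts, had log2 fold changes of -0.40 ± 0.08 and -0.23 ± 0.11, with no overlap between groups and no pass. Of the 20 listed microRNA host symbols in the table, 7 were tested and Mir100hg was the 1 that passed. The median log2 fold change of those 7 was -0.11.

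The nuclear lncRNAs include the most highly counted members. Neat1, the scaffold of paraspeckles, had 1260, 1079 and 1256 CPM in Ov_SNHG1 libraries, against 1295, 1276 and 1224 CPM in Vector libraries. The groups overlapped, with a log2 fold change of -0.08 ± 0.07 (95% interval -0.24 to 0.08; edgeR adjusted p = 0.564). Malat1, a component of nuclear speckles, had 712, 463 and 478 CPM in Ov_SNHG1 libraries, against 614, 1062 and 630 CPM in Vector libraries. Malat1 varied by more than a factor of 1.5 inside each group, Ov_SNHG1 replicate 1 was above 2 of the Vector libraries, and its log2 fold change of -0.48 ± 0.24 did not pass (adjusted p = 0.347). It was -0.19 without Vector replicate 2 and -0.71 without Ov_SNHG1 replicate 1, and passed in neither. Together Neat1 and Malat1 held 23.6 to 29.6% of all counts of the 245 lncRNAs in Ov_SNHG1 libraries and 27.96 to 31.8% in Vector libraries.

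Firre, an X-linked RNA that organises nuclear contacts between chromosomes, had 106.5, 88.8 and 93.0 CPM in Ov_SNHG1 libraries, against 100.6, 112.8 and 112.4 CPM in Vector libraries. The groups overlapped and the log2 fold change of -0.18 ± 0.08 did not pass (adjusted p = 0.319). Pvt1, the neighbour of Myc, was at 21.8, 20.2 and 25.5 CPM against 17.6, 16.9 and 22.8 CPM, with overlapping groups and a log2 fold change of 0.23 ± 0.14. None of the 6 tested genes of the nuclear list passed; at an unadjusted p under 0.05 there was 1, Tug1, which the table annotates as protein-coding (log2 fold change -0.20 ± 0.08). Of 29 genes for paraspeckle proteins, all tested, none passed, 7 (24.1%) had an unadjusted p under 0.05, and the median log2 fold change was -0.05. Of 28 genes for nuclear RNA decay and export, none passed, 6 (21.4%) had an unadjusted p under 0.05, and the median was -0.06. Over all tested genes that share was 17%, and 2.4% passed.

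Norad, a cytoplasmic RNA that binds Pumilio proteins, was among the steadiest of the highly counted lncRNAs. It had 280.6, 270.5 and 286.8 CPM in Ov_SNHG1 libraries, against 279.5, 284.6 and 270.8 CPM in Vector libraries. Its log2 fold change was 0.00 ± 0.05, with a 95% interval of -0.12 to 0.12. It stands on the p53 list, of which 8 genes were tested and none passed, with 1 (Tug1 again) at an unadjusted p under 0.05 and a median log2 fold change of -0.14.

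Among imprinted lncRNAs, Airn and Kcnq1ot1 were abundant enough to be members. Airn, which is transcribed across the start of Igf2r and silences it on the paternal chromosome, had 9.03, 9.88 and 7.81 CPM in Ov_SNHG1 libraries, against 12.1, 12.9 and 11.3 CPM in Vector libraries. The groups did not overlap, but the log2 fold change of -0.45 ± 0.12 did not pass (edgeR adjusted p = 0.121). Kcnq1ot1, which silences genes of the Kcnq1 domain, had 19.6, 8.36 and 18.1 CPM against 17.5, 22.8 and 15.5 CPM, and Ov_SNHG1 replicate 2 alone was low. Its log2 fold change of -0.28 ± 0.30 became 0.02 without that library. H19, the third tested gene of the list, was at 0.476 CPM, and Meg3 was at 0.019 CPM; none of the 3 tested genes passed, and 1 had an unadjusted p under 0.05.

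Of the X inactivation list, Ftx, Jpx and Firre were members, Xist had 7, 3 and 11 counts in Ov_SNHG1 libraries and 15, 5 and 7 in Vector libraries, and Tsix was at 0. Ftx, a gene of the X inactivation centre that also hosts miR-374b and miR-421, had 15.6, 15.1 and 15.3 CPM in Ov_SNHG1 libraries, against 20, 21.2 and 19.4 CPM in Vector libraries. The gap was wide against the spread of either group, and its log2 fold change of -0.40 ± 0.08 just missed the threshold (edgeR adjusted p = 0.0527); it passed by DESeq2 (adjusted p = 0.0323). Jpx, which overlaps one end of Ftx, had 6.10, 5.22 and 3.96 CPM against 7.87, 5.35 and 5.20 CPM, with overlapping groups and a log2 fold change of -0.28 ± 0.22.

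Hoxaas2, antisense to Hoxa3 in the HOXA cluster, was the only member from the HOX list. It had 6.26, 6.22 and 4.63 CPM in Ov_SNHG1 libraries, against 7.54, 10.2 and 9.43 CPM in Vector libraries. The groups did not overlap, and the log2 fold change was -0.66 ± 0.17 (edgeR adjusted p = 0.0989). Hoxa3, a homeobox transcription factor gene that shares 503 bp with it on the opposite strand, had a log2 fold change of -0.44 ± 0.09 (adjusted p = 0.0541). Of 4 tested genes of the list none passed, 1 had an unadjusted p under 0.05 and the median was -0.23.

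Of 10 tested lncRNAs known from NF-kappaB signalling and inflammation, none passed and the median log2 fold change was -0.11. Ptgs2os2, known as lincRNA-Cox2 and induced in stimulated macrophages, had 71.7, 75.9 and 79.9 CPM in Ov_SNHG1 libraries, against 80.5, 87.2 and 80.7 CPM in Vector libraries. The values hardly separated, and the log2 fold change was -0.13 ± 0.06 (edgeR adjusted p = 0.336). Gm28875 had a log2 fold change of -0.10 ± 0.13 with overlapping groups, and Gm20559 one of 0.37 ± 0.45, with Vector replicate 2 at 5.02 CPM and the other libraries at 16.4 to 25.7 CPM. The 1 gene of the list at an unadjusted p under 0.05 was AW112010, at 1.28 CPM and not a member, with a log2 fold change of 0.60 ± 0.23 (adjusted p = 0.237). Nfkb2 passed in the same libraries, as given above.

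Of 14 tested genes on a list of other studied lncRNAs none passed, with 2 at an unadjusted p under 0.05 and a median log2 fold change of -0.07. Those 2 were Oip5os1 and Chaserr. Oip5os1, known as Cyrano, directs the decay of miR-7 and had 85.3, 75.2 and 64.5 CPM in Ov_SNHG1 libraries, against 102.4, 111.6 and 93.4 CPM in Vector libraries. The groups did not overlap, but Ov_SNHG1 libraries spread widely, and the log2 fold change of -0.45 ± 0.11 did not pass (edgeR adjusted p = 0.0868). Chaserr, which lies beside Chd2 and restrains that chromatin remodeller, had 38.9, 41.1 and 40.1 CPM against 52.2, 57.3 and 46.7 CPM. Its log2 fold change of -0.38 ± 0.08 did not pass (adjusted p = 0.0632), and Chd2, which shares 2030 bp with it, had a log2 fold change of -0.22 ± 0.06 (adjusted p = 0.125). The other members of that list, 2410006H16Rik, Dubr, Bvht, Lncenc1, Dancr and Crnde, had log2 fold changes of -0.23 to 0.23. Of 3 tested rows known to take up ribosomal RNA reads, none of them a member, none passed or had an unadjusted p under 0.05, with a median log2 fold change of -0.05.

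**Figure D3:**
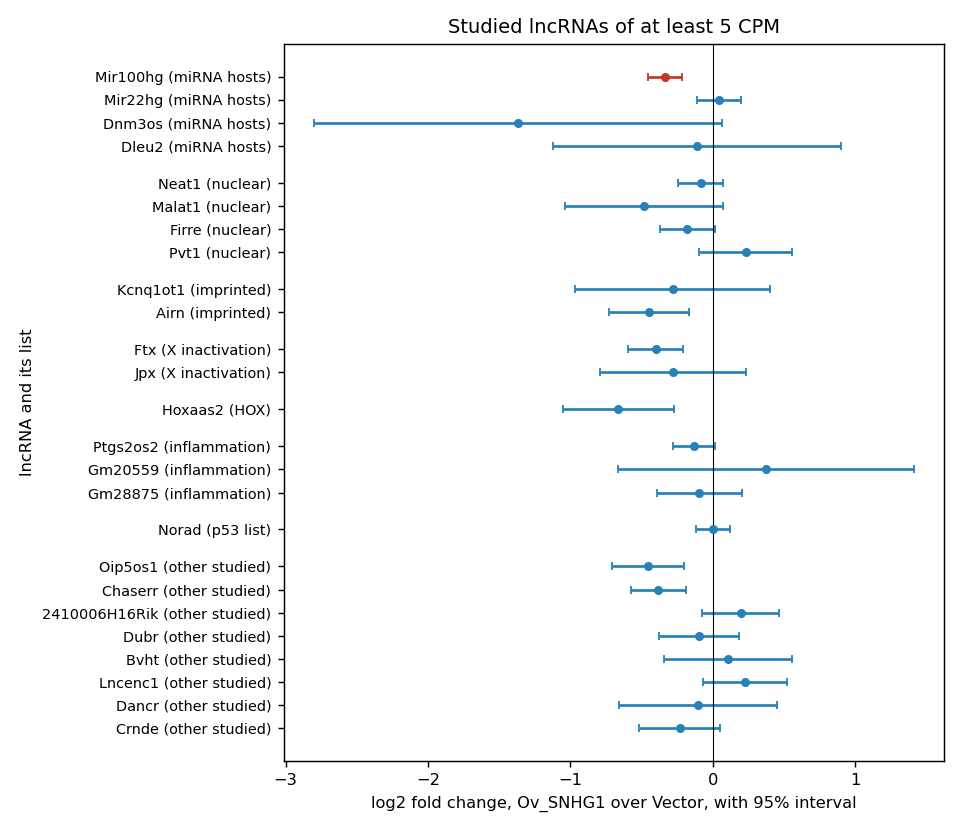
Log2 fold change of Ov_SNHG1 over Vector (x axis) with its 95% interval for the listed lncRNAs among the 245, grouped by list; red marks a pass at an adjusted p of 0.05. Mir100hg is the 1 in red, and Norad and Mir22hg have narrow intervals around 0, while those of Dnm3os, Gm20559 and Dleu2 are wide.

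Several lncRNAs that did not pass were close to the threshold, with log2 fold changes of either sign. Gm46430 on chromosome 13 had 20.1, 18.1 and 22.9 CPM in Ov_SNHG1 libraries, against 27.6, 29.3 and 27.8 CPM in Vector libraries, a log2 fold change of -0.48 ± 0.10 (edgeR adjusted p = 0.0533). It lies at the end of a run of 5 abundant lncRNAs between 74552302 and 74766064, with Gm47428, E430024I08Rik, Gm47467 and Gm47469. Their log2 fold changes were 0.29 ± 0.22, -0.21 ± 0.09, -0.50 ± 0.16 and -0.23 ± 0.07, none of which passed. Gm56517 had a log2 fold change of -0.31 ± 0.07 (adjusted p = 0.0700), Gm3716 of -0.65 ± 0.15 (adjusted p = 0.0712), C430049B03Rik of -0.56 ± 0.14 (adjusted p = 0.0951), and Gm56518 of -0.57 ± 0.15 (adjusted p = 0.0989). In each of these the groups did not overlap. On the other side, G930009F23Rik had 17.1, 11.7 and 13.7 CPM in Ov_SNHG1 libraries, against 9.24, 10.2 and 7.96 CPM in Vector libraries, a log2 fold change of 0.63 ± 0.16 (adjusted p = 0.105), and Gm49544 had the same log2 fold change of 0.63 ± 0.16 (adjusted p = 0.108).

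Some lncRNAs varied widely inside a group. In 12 of the 245 (4.90%) the libraries of 1 group differed by more than 1 log2 unit (with 0.1 CPM added), against 2.49% of the 11097 tested genes of at least 5 CPM. The lncRNAs had a median of 9.85 CPM, against 44.1 CPM for tested protein-coding genes of at least 5 CPM. The part of this lower level in the share was not tested. Gm21982 averaged 2.28 CPM in Vector libraries and reached the limit of 5 CPM only through Ov_SNHG1 replicates 2 and 3, so its large difference is tied to how it was chosen. It had 66, 930 and 704 counts in Ov_SNHG1 libraries, against 39, 48 and 35 in Vector libraries. Ov_SNHG1 replicates 2 and 3 were more than 10 times above every other library, and Ov_SNHG1 replicate 1 was only just above the Vector libraries. The log2 fold change was 3.64 ± 0.83 and did not pass (edgeR adjusted p = 0.0720), while without Ov_SNHG1 replicate 1 it was 4.16 (adjusted p = 0.000174) and DESeq2 called it with all libraries (adjusted p = 0.0051). The row overlaps Haus5 and Rbm42 on the same strand, so shared reads can be split among these genes. Haus5 had 28.3, 26.7 and 23.8 CPM against 27.8, 29.8 and 32.4 CPM, and Rbm42 had 125.6, 98.3 and 96.8 CPM against 113.1, 109.3 and 125.5 CPM, and neither passed.

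Ubb-ps, a row named as a pseudogene of the polyubiquitin gene Ubb, had the same pattern with high counts. It had 1903, 7843 and 7900 counts in Ov_SNHG1 libraries, against 1843, 1410 and 1730 in Vector libraries, which is 97.6, 372.4 and 411.4 CPM against 87.4, 90.8 and 93.7 CPM. Ov_SNHG1 replicate 1 lay beside the Vector libraries, and replicates 2 and 3 about 4 times above them. The log2 fold change of 1.69 ± 0.44 did not pass (edgeR adjusted p = 0.107), and without Ov_SNHG1 replicate 1 it was 2.10 (adjusted p = 1.7e-05). Ubb itself had 724, 717 and 760 CPM against 605, 642 and 662 CPM, a log2 fold change of 0.20 ± 0.05 (adjusted p = 0.110). Reads of Ubb-ps and Ubb may have been split between near-identical copies, and the sum of both rows was 822, 1090 and 1171 CPM in Ov_SNHG1 libraries, against 693, 733 and 755 CPM in Vector libraries.

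In the remaining lncRNAs of this kind the odd library was not always the same one. Gm20427 had 25.7, 18.6 and 21.6 CPM in Ov_SNHG1 libraries, against 18.9, 18.3 and 2.60 CPM in Vector libraries, with Vector replicate 3 alone low. It overlaps Slc39a7, a zinc transporter gene, which was highest in that library, at 110.8 CPM against 55.1 to 80.0 CPM in the other 5. 4933412E12Rik was high in replicate 1 of both groups, with 38.0, 11.5 and 10.8 CPM against 34.9, 8.83 and 12.4 CPM, and Gm4673 in replicate 3 of both, with 3.23, 3.37 and 11.3 CPM against 2.37, 2.96 and 10.4 CPM. D17H6S56E-5 was high in replicate 2 of both, with 54.7, 110.8 and 58.3 CPM against 61.7, 96.8 and 52.6 CPM. 9630013D21Rik and Gm36995, like Dleu2, spread in both groups with no order, from 2.52 to 11.7 CPM. Without these 12, the median log2 fold change of the other 233 was -0.06 and the same 4 lncRNAs passed.

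**Figure D4:**
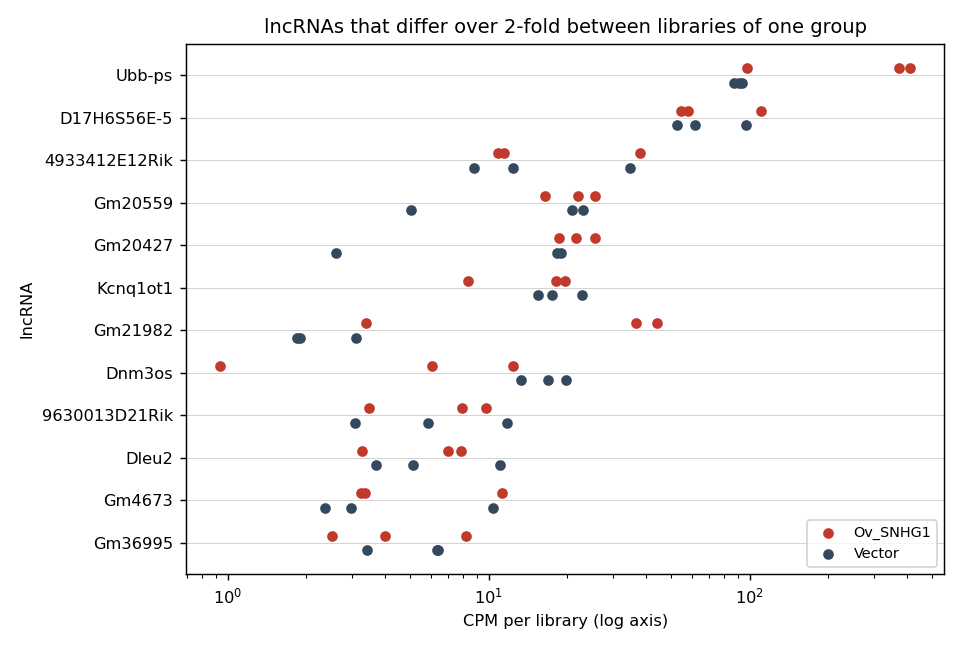
CPM in each library (x axis, log scale) of the 12 lncRNAs whose libraries within 1 group differed by more than 1 log2 unit, with Ov_SNHG1 in red above Vector in blue. In Ubb-ps and Gm21982 the 2 high points are Ov_SNHG1 replicates 2 and 3, and in Gm20427 the low point is Vector replicate 3.

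Position beside coding genes was a common feature of the abundant lncRNAs. By the coordinates of the table, 114 overlapped a protein-coding row, 65 lay within 5 kb of one and 66 did neither. Of the 114, 86 were on the opposite strand of at least 1 overlapping coding gene and 20 on the same strand of at least 1, by GENCODE M21 strands. The share with a log2 fold change below 0 was 58.8% of the overlapping lncRNAs, 69.2% of those within 5 kb and 50% of the rest, and the median was -0.06, -0.08 and -0.01. Each of the 3 classes held 1 or 2 of the 4 lncRNAs that passed.

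A tested coding gene overlapped or lay within 5 kb of 172 of the lncRNAs, and 5 of these 237 coding genes passed (2.11%, against 2.4% of all tested genes). Each stood beside 1 lncRNA, and in 3 of these pairs both had the same sign. The first pair is 4833438C02Rik and Nfkb2. In the second, Airn had a log2 fold change of -0.45 ± 0.12, which did not pass, and Igf2r, which encodes the mannose 6-phosphate and IGF2 receptor, fell by 0.26 on the log2 scale with an SE of 0.05 (edgeR adjusted p = 0.0257). Igf2r had 1218, 1181 and 1187 CPM in Ov_SNHG1 libraries, against 1466, 1400 and 1419 CPM in Vector libraries. In the third, 2900052L18Rik, 1309 bp from Bahcc1, had 10.7, 9.45 and 9.74 CPM against 8.53, 6.70 and 9.37 CPM (log2 fold change 0.27 ± 0.14, not passed), and Bahcc1 was higher by 0.48 ± 0.08 (adjusted p = 0.0292).

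In the other 2 pairs the signs were opposite. E130307A14Rik, which shares 33896 bp with Traf3ip2 on the opposite strand, had 8.26, 6.89 and 6.25 CPM in Ov_SNHG1 libraries, against 8.39, 8.25 and 8.56 CPM in Vector libraries. Its log2 fold change of -0.24 ± 0.13 did not pass, whereas Traf3ip2, which encodes the IL-17 receptor adaptor Act1, was higher by 0.55 ± 0.07 (edgeR adjusted p = 0.00713). Traf3ip2 had 39.8, 39.6 and 38.4 CPM against 28.02, 26.5 and 25.3 CPM, with no overlap. 4930581F22Rik had a log2 fold change of -0.36 ± 0.13, which did not pass, and Dcps, a scavenger decapping enzyme gene on the opposite strand, was higher by 0.36 ± 0.06 (adjusted p = 0.0294). The same lncRNA also shares 2541 bp with St3gal4, which had a log2 fold change of -0.33 ± 0.08 and did not pass (adjusted p = 0.0812). E130307A14Rik thus had the opposite sign to Traf3ip2, while 4833438C02Rik had the same sign as Nfkb2. Reads of 4833438C02Rik and Nfkb2 in their shared stretch cannot be told apart, and the difference between pairs was not tested.

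**Figure D5:**
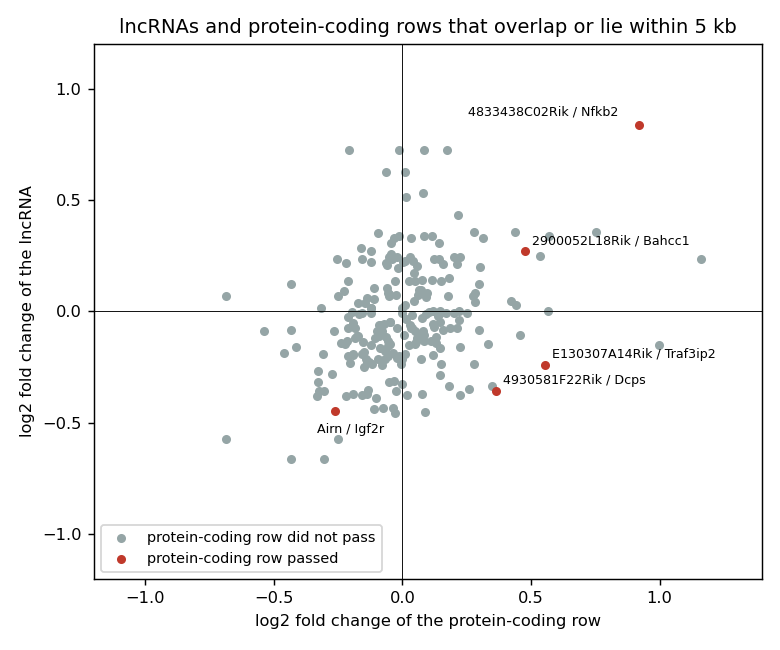
Log2 fold change of each abundant lncRNA (y axis) against that of each tested protein-coding row that overlaps it or lies within 5 kb (x axis), both Ov_SNHG1 over Vector; 236 of 245 pairs are shown, with 9 outside the axes. Red marks the 5 pairs whose coding row passed, 3 on the same side of 0 for both genes and 2 on opposite sides.

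Several members are close relatives of coding genes rather than RNAs with a described role, and their reads may be shared with those genes. C4a, annotated as lncRNA in the table and a near-identical copy of complement C4b, had 104, 83 and 127 counts in Ov_SNHG1 libraries, against 104, 75 and 95 in Vector libraries, with a log2 fold change of 0.08 ± 0.19. C4b had 111, 83 and 60 counts against 18, 14 and 15, and passed with a log2 fold change of 2.30 ± 0.27 (edgeR adjusted p = 0.00554). The summed level of both rows was 11.03, 7.88 and 9.74 CPM against 5.78, 5.73 and 5.96 CPM. Gm10076 had 243.8, 331.6 and 386.0 CPM against 235.3, 287.1 and 282.0 CPM, with overlapping groups and a log2 fold change of 0.25 ± 0.16. Ppp1ccb, Ndufb4b and Rps18-ps4 carry names related to Ppp1cc, Ndufb4 and Rps18, and their log2 fold changes were 0.06 ± 0.07, 0.08 ± 0.11 and 0.43 ± 0.17, none of which passed.

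Brip1os and AU020206, both among the top 10 by count, had groups that did not overlap, and neither passed. Brip1os, which lies 118 bp from the DNA repair helicase gene Brip1 on the opposite strand, had 113.8, 117.6 and 117.0 CPM in Ov_SNHG1 libraries, against 138.8, 134.8 and 128.8 CPM in Vector libraries. Its log2 fold change was -0.21 ± 0.05 (edgeR adjusted p = 0.0963), and that of Brip1 was 0.00 ± 0.09. Brip1os also overlaps Med13 and Ints2 on the opposite strand, which had log2 fold changes of -0.14 ± 0.06 and -0.10 ± 0.07 and did not pass. AU020206 had 103.0, 103.7 and 97.8 CPM against 96.0, 90.0 and 85.8 CPM, a log2 fold change of 0.16 ± 0.06 (adjusted p = 0.252).

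The order of the lncRNAs by level depended on the scale. By CPM the order began with Neat1, Malat1, Gm10076, Norad and Mir100hg, at 1232, 660, 294, 279 and 224 CPM. Per length, by the deposited FPKM, it began with Gm10076, Ubb-ps, Ndufb4b, Ppp1ccb and Norad, at 373, 112, 90.3, 80.7 and 52.8 FPKM, with Neat1 at rank 7 (47.5 FPKM) and Malat1 at rank 13 (23.8 FPKM). The lengths behind the FPKM values were long: the length implied by counts and FPKM was a median of 1.97 times the longest GENCODE M21 transcript over 201 members, at most 76.1 times, and exceeded the genomic span of 42 members, so per-length levels are approximate. All 245 lncRNAs together took 0.654 to 0.692% of the counts of Ov_SNHG1 libraries and 0.663 to 0.734% of those of Vector libraries.

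In build and naming the abundant lncRNAs were mostly uncharacterised. There were 106 with Gm numbers, 84 with Rik clone names and 55 with other symbols, 13 of all of them ending in os for opposite strand. Of the 202 that matched a GENCODE M21 gene, the longest transcript had a median of 2243 bp and 2 exons, against 3508 bp and 8 exons in tested protein-coding genes of at least 5 CPM. Transcripts of 1 exon made up 29.2% of these lncRNAs, against 5.40% of those coding genes. Across genes, which are not independent, Spearman's rho of the log2 fold change with GC content was 0.46 in the lncRNAs and 0.35 in the coding genes, and with transcript length it was -0.22 in both. The lncRNAs that were lower thus tended to be those of low GC content in libraries where coding genes also showed such a trend. With these trends removed 3 of the 4 lncRNAs passed, all but Mir100hg. In that fit 145 of the 245 lncRNAs (59.2%) were below 0, with a median log2 fold change of -0.05. These values include the lncRNAs beyond the 202 that matched GENCODE M21, for which no trend was removed. The part of GC content and length in the share below 0 was therefore not settled by that fit.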

How the data were processed

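The authors deposited 1 table with whole-number counts and FPKM values per gene for 6 poly(A)-selected, stranded libraries. The submitters' processing notes name StringTie, HISAT2, SAMtools 1.3.1 and the build GRCh38, although the gene identifiers are mouse. How reads were counted, with which strand setting, and which build the coordinates use are points not given in the sources used here, so table coordinates carry no build. The deposited FPKM values were used only to describe levels per length.

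Deposited counts were tested with edgeR 4.0.16 (quasi-likelihood F test in R 4.3.3, TMM, default filterByExpr, group as the only term, Benjamini-Hochberg adjustment over all 14605 genes at 0.05). Fold changes are Ov_SNHG1 over Vector, with SE from the fit, and CPM errors are SD over 3 libraries. Groups came from the titles. The pipeline was tested on simulated data. Alternatives used other size factors or filters, DESeq2 1.42.0, limma-voom (limma 3.58.1), a replicate block, each library left out and other member thresholds. Removal of GC content and length trends, and a limit of 5 CPM in each group, were added after the data were seen.

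Named were the 10 highest lncRNAs by CPM, those that passed, the 5 highest and 5 lowest of the rest, those on lists (nuclear, imprinted, microRNA host, inflammation, p53, X inactivation, HOX, ribosomal RNA overlap), those at the threshold, and those that varied inside a group. Others were chosen after their values were seen, among them Oip5os1, Chaserr, Gm46430, Gm56517, C4a and the microRNA hosts that are not on the list. The members and lists were chosen with earlier results of these data known. Promoter and microRNA sequences came from RefSeq tables and strands and transcripts from GENCODE M21, which 202 of the 245 lncRNAs matched. The count of microRNA hosts left out the 5 members on chromosome 18.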

Additional observations from a re-analysis of the deposited data

How the results depend on the processing

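The number of lncRNAs that passed was 4, and was 3 to 6 with other size factors, filters, limma-voom, GC content and length trends removed, member limits of 2 or 10 CPM, or a mean of 5 CPM asked of each group (added after the data were seen). DESeq2 called 14 of the 245 (3 higher, 11 lower), which included the 4. Over all genes it called 690 of the 12774 with an adjusted p (5.4%), against 350 of 14605 (2.4%) with edgeR. The DESeq2 share by direction over all genes was not computed. Of the 131 lncRNAs that overlap no protein-coding row, 2 passed. Leaving out 1 library gave 0 to 10 lncRNAs and 123 to 807 of all genes; the highest values were without Ov_SNHG1 replicate 1, and 0 lncRNAs passed without any 1 of the Vector libraries. No log2 fold change that passed changed sign under any setting.

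No pairing by replicate number showed across genes: deviations of same-numbered libraries had correlations of 0.025, -0.043 and -0.039. With 3 libraries a group these values cannot exclude a shared replicate effect. 4933412E12Rik, Gm4673 and D17H6S56E-5 were high in the same replicate number of both groups. With the replicate number as a block, 0 lncRNAs and 163 of all genes passed; adjusted p was 0.0819 for Mir100hg, 0.0705 for Gm19656, 0.0533 for Gm11816 and 0.0886 for 4833438C02Rik. The block leaves fewer degrees of freedom; the cause of the other differences was not tested.

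With 3 libraries a group, a typical lncRNA had an SE of 0.13 on the log2 scale, so small differences were not detectable at this depth.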
